A study of Mus musculus with 202 samples.

Results

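The genes described here encode mitochondrial chaperones and proteases. They are Hspd1, Hspe1, Hspa9, Trap1, Lonp1, Clpp and Clpx, chosen by name from their known roles. Earlier results of these data had been seen when they were chosen. These 7 genes each stand on 1 row of a deposited table of 28987 genes, and all 7 were among the 7222 genes above an expression floor, set at a mean of 5 TPM with 10% of cells above 0. The study profiled single cells of a KPC mouse tumour cell line, a pancreatic ductal adenocarcinoma taken from the liver metastasis of a male. Cultured cells at passages 4 to 6 were sorted by an antibody to E-cadherin, which joins epithelial cells, into a positive fraction (Ecad+) and a negative fraction (Ecad-). No treatment other than staining and sorting is given for either group, and both come from the same kind of culture. There are 104 libraries of Ecad+ and 98 of Ecad- cells, each library from 1 cell captured on a Fluidigm C1. The question here is whether a mitochondrial unfolded protein response was seen beside the genes of ATF4, the transcription factor of the integrated stress response.

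Most mitochondrial proteins are made in the cytosol, threaded through the mitochondrial membranes unfolded, and folded in the matrix. Hspa9 (mortalin) is the matrix Hsp70 that pulls them in. Hspd1 (Hsp60) and Hspe1 (Hsp10) form the barrel and the lid of the chaperonin in which they fold. Trap1 is the matrix Hsp90. Lonp1 is an ATP-driven protease of the matrix, and Clpx unfolds proteins and feeds them to the protease Clpp. In the mitochondrial unfolded protein response, as first described in mammalian cells, misfolded matrix proteins raise chaperonin and protease transcripts together. In many mammalian cells mitochondrial stress acts mainly through ATF4, with OMA1, DELE1 and the kinase HRI (Eif2ak1) as relay.

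Hspd1 and Hspe1 lie head to head on chromosome 1 in mm10, Hspd1 on the minus strand at chr1:55077835-55088243 and Hspe1 on the plus strand at chr1:55088132-55091307. In GENCODE M21 the first exons of the genes overlap by 112 bases, so that reads from this stretch cannot be assigned to a strand with this chemistry. In RefSeq (GRCm38.p6) 215 bases separate the Hspe1 start site at 55088148 from the nearer Hspd1 start site at 55087932. This stretch holds 1 match to the heat shock element GAANNTTC. By the GENCODE spans above, this match lies inside Hspd1. It is shown with its flanks because, by these RefSeq start sites, both chaperonin genes read out from this stretch (chr1:55088053-55088082, plus strand, heat shock element in capitals).

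Hspd1 and Hspe1 shared element: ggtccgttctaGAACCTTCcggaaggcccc

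Promoters of 6 members were found in the set of RefSeq promoters used here, which had no entry for Hspa9. The 250 bases before the start site were searched on both strands for GAANNTTC, for the composite ATF4 element TGATGNAA, for CCAAT, for the endoplasmic reticulum stress element (ERSE), which begins with CCAAT, and for TGACGT, the core of the cAMP response element, which was added after the sequences were read. GAANNTTC was found before 6.78% of 27025 genes, TGATGNAA before 3.53%, CCAAT before 34.5%, the endoplasmic reticulum stress element before 0.122% and TGACGT before 6.56%. Lonp1 and Trap1 are shown since they are the 2 members with TGACGT (in capitals). In Lonp1 it lies 7 to 2 bases before the start site, and in Trap1 matches on both strands together cover 47 to 40 bases before it. Clpx held 1 CCAAT on the minus strand. No searched motif was found in this window of Clpp, and TGATGNAA was found in none of the 6. A match is a description of the letters only.

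Lonp1, chr17:56626904-56627153, minus strand: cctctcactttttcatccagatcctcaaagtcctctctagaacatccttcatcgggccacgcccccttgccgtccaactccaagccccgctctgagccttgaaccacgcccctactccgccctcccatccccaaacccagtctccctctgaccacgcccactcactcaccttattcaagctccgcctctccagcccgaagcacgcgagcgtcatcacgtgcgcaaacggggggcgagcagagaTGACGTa
Trap1, chr16:4077811-4078060, minus strand: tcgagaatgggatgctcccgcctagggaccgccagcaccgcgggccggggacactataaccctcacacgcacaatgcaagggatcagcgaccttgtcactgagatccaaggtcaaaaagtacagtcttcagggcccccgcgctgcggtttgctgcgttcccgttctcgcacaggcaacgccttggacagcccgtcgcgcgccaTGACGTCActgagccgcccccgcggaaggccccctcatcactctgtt

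Values are TPM (transcripts per 1000000), a unit that is per length and relative within a cell, and read depth is unknown. The libraries fell into 3 sets by a suffix of their names, whose meaning is not stated. There were 5 pairs of libraries with correlations of 0.984 to 0.994, the next pair having 0.939, and each such pair was averaged as 1 cell, leaving 100 Ecad+ and 97 Ecad- cells. No separate cultures are named, so each group is 1 sample and no p-value is given. Mitochondrially encoded genes made up 30.0% of the TPM of the median Ecad+ cell and 8.78% of that of the median Ecad- cell. They made up under 1% in 1 Ecad+ and 40 Ecad- cells, here called low-share cells. Ecad- cells also had fewer genes above 0 (medians 8694 and 10338). Over the 7222 genes the median log2 ratio of Ecad- to Ecad+ was 0.31, and 0.14 without low-share cells, so ratios are also read against these medians. Cdh1, the gene of the sorted protein, had a log2 ratio of -1.19. Of 8 epithelial markers 7 passed the floor, with a median ratio of -1.19; all 7 lay below the median of all genes, 5 were lower by at least 2-fold and 6 were lower in each set. Their part in the results below was not tested. Of the immune markers, Ptprc was listed at 0 in all cells, and the summed level of the list ran from 0 to 126 TPM among Ecad+ and to 370.1 TPM among Ecad- cells. Nearly all of it was Cd68, the only immune marker above the floor, which was higher in Ecad- cells (means 6.35 and 30.0 TPM, ratio 2.08, with 1.81, 3.17 and 1.75 in the sets and 1.39 without low-share cells). Its part in the results was not tested. No fibroblast or endothelial marker passed the floor. The summed fibroblast level reached 5.03 TPM among Ecad+ and 27.4 TPM among Ecad- cells, and the endothelial one 0.0937 and 5.88 TPM. Of the hepatocyte markers only Ttr passed, and their sum reached 218 and 642 TPM.

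In Ecad+ cells the mean levels ran, from the highest, Hspe1, Hspd1, Clpp, Hspa9, Trap1, Lonp1 and Clpx. Clpp and Hspa9 stood close, as did Trap1, Lonp1 and Clpx, with SDs over cells larger than the gaps between them. In Ecad- cells Hspa9 came above Hspd1 and Clpp, and Lonp1 came above Clpx and Trap1.

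The 7 genes did not move as a set between the sorted groups. Hspa9 was the only member past a log2 ratio of 1, higher in Ecad- cells, where 14.2% of all genes above the floor were that much higher and 4.14% that much lower. That call depends on the scale: Hspa9 was at 0.96 on means of log2 values, 0.98 relative to the median of all genes, 0.93 after rescaling without mitochondrially encoded and ribosomal protein genes, and 0.74 without low-share cells. The other 6 lay between -0.34 (Hspd1) and 0.88 (Lonp1). The median of the 7 ratios was 0.40, or 0.10 above the median of all genes, and 4 members lay above and 3 below that median. Without low-share cells the members' median was 0.07 above that of all genes. Hspa9, Lonp1, Clpp and Hspe1 were higher in each of the 3 library sets, 4 of 7 where 44.9% of all genes were, and Hspd1 was lower in each, where 14.8% were. Without low-share cells Clpp was no longer higher in set 3 (-0.07), nor was Hspe1 in sets 2 and 3 (-0.00045 and -0.28).

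**Figure D1:**
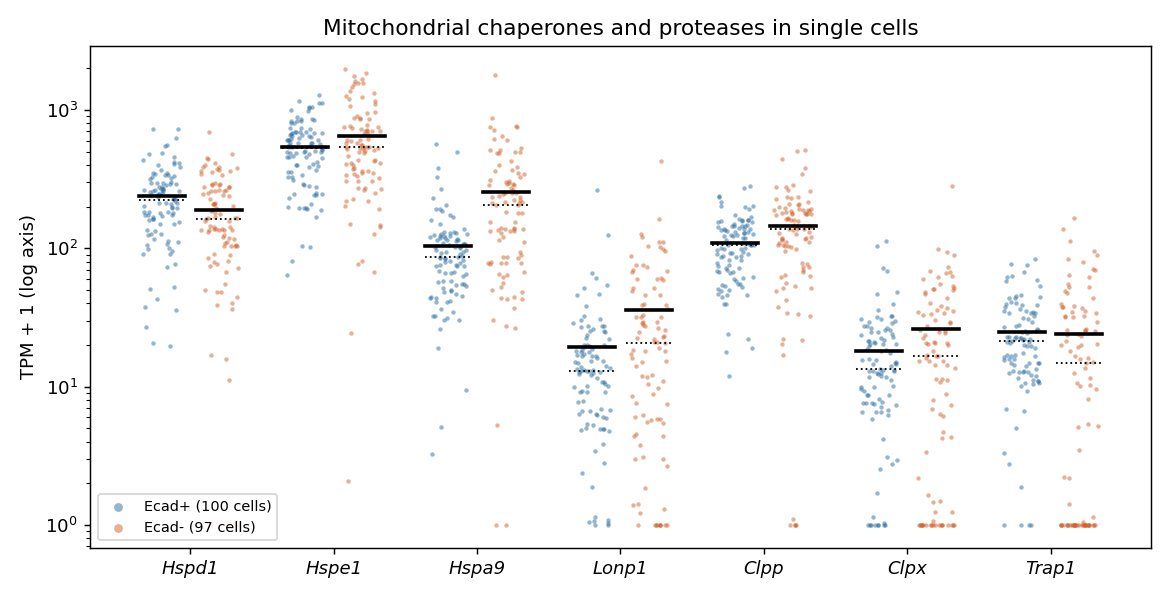
TPM plus 1 (log axis) of each member in every cell, Ecad+ in blue (100 cells) and Ecad- in orange (97 cells); solid bars are means and dotted bars medians. Hspa9 is the member whose Ecad- mean (253 TPM) stands farthest above its Ecad+ mean (103 TPM), and the points of the groups overlap for every member.

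Hspa9 had a mean of 103 ± 86.8 TPM among Ecad+ cells (SD over 100 cells) and of 253 ± 253 TPM among Ecad- cells (SD over 97 cells). The lowest, median and highest Ecad+ cells had 2.28, 85.7 and 564 TPM, and the Ecad- cells 0, 204 and 1792 TPM. The groups overlapped, but 64 of 97 Ecad- cells lay above the third quartile of Ecad+ cells (120.5 TPM) and 9 above the highest Ecad+ cell. The log2 ratio was 1.29, at percentile 91.9 of all genes, with 0.80, 0.96 and 2.11 in library sets 1, 2 and 3. Without low-share cells the means were 98.9 and 166 TPM and the ratio was 0.74, with 0.62, 0.44 and 1.03 in the sets. Hspa9 thus stood 0.98 above the median of all genes over all cells and 0.60 above it without low-share cells. Set 3 weighed most: without it the ratio was 0.91, or 0.59 above that median. Set 3 also held the most low-share Ecad- libraries (22 of 33).

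Hspd1, the chaperonin barrel, was lower in Ecad- cells, with a mean of 189 ± 128 TPM (SD over cells) against 239 ± 143 TPM in the Ecad+ fraction. The lowest, median and highest cells had 18.7, 222 and 733 TPM in Ecad+, and 0, 161 and 690 TPM in Ecad-. No Ecad- cell lay above the highest Ecad+ cell, and 46 of 97 lay below the first Ecad+ quartile (145 TPM). The log2 ratio was -0.34, with -0.33, -0.57 and -0.0049 in sets 1 to 3, so the groups hardly differed in set 3. It was -0.43 without low-share cells, with -0.25, -0.74 and -0.51 in the sets. Relative to all genes Hspd1 stood at -0.64, and below the median of all genes under every alternative run.

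Hspe1, the chaperonin lid, stayed near the median of all genes. Its level was the highest of the 7 genes, at 541 ± 266 TPM (Ecad+) and 644 ± 448 TPM (Ecad-). The lowest, median and highest cells had 62.7, 530.2 and 1284 TPM in Ecad+, and 1.09, 536 and 1988 TPM in Ecad-. The medians of the groups were thus close, and 11 Ecad- cells lay above the highest Ecad+ cell. The log2 ratio was 0.25, which is -0.06 relative to all genes, with 0.26, 0.42 and 0.09 in the sets. It was 0.0056 without low-share cells, with 0.32, -0.00045 and -0.28 in the sets. The table also lists 5 Hspe1 pseudogenes and 1 Hspa9 pseudogene, with means of up to 0.469 TPM, and kallisto could split reads between such copies and the gene.

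The balance between chaperones therefore differed between the sorted groups. The mean of Hspd1 was 0.443 times that of Hspe1 in Ecad+ and 0.294 times in Ecad- cells, a log2 difference of -0.59, with -0.60, -0.996 and -0.10 in the sets and -0.43 without low-share cells. The mean of Hspa9 was 0.430 times that of Hspd1 in Ecad+ and 1.33 times in Ecad- cells, a log2 difference of 1.63, with 1.14, 1.54 and 2.13 in the sets. Among Ecad+ cells 7 of 100 had more Hspa9 than Hspd1, and among Ecad- cells 54 of 97 had. By set, this was so in 4 of 28, 1 of 39 and 2 of 37 Ecad+ libraries and in 16 of 33, 15 of 32 and 23 of 33 Ecad- libraries. Without low-share cells it was so in 6 of 99 and 24 of 57 cells, with a log2 difference of 1.17. The Hspa9 to Hspd1 comparison was chosen after the values were seen. The count of cells in which one gene exceeds the other does not depend on the scaling of TPM within a cell. It was still a smaller part of the Ecad- cells without low-share cells, and the part of the mitochondrial share was not tested.

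**Figure D2:**
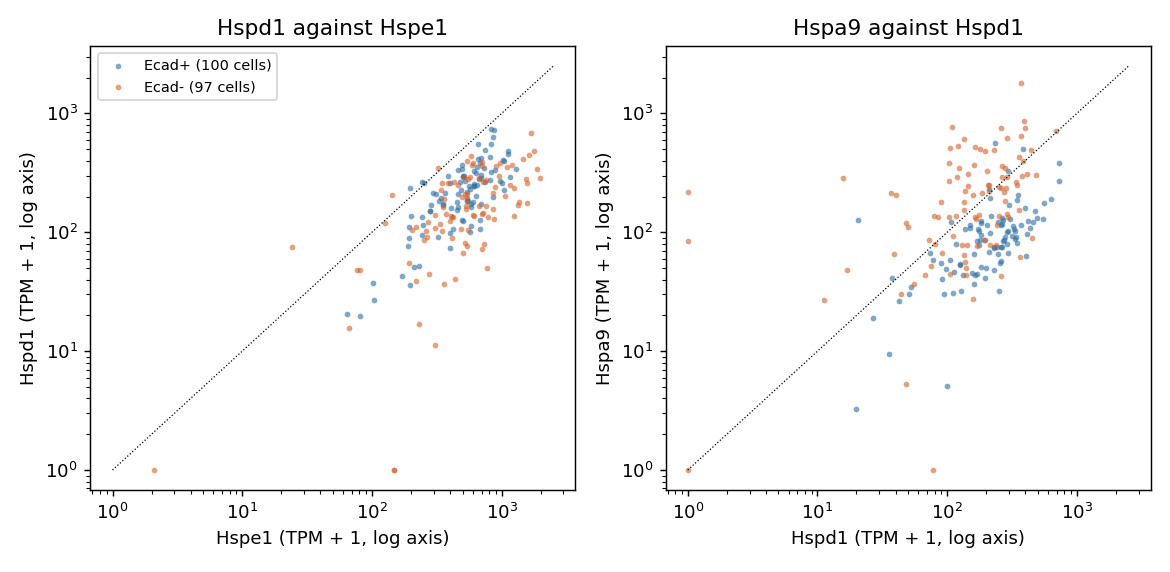
Left, Hspd1 against Hspe1, and right, Hspa9 against Hspd1, in TPM plus 1 (log axes); each point is a cell and the dotted line marks equal levels. On the right, 54 of 97 Ecad- cells and 7 of 100 Ecad+ cells lie above the line; on the left nearly all cells of both groups lie below it.

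Lonp1, the matrix protease, was higher in Ecad- cells, with wide spread between cells. The Ecad+ mean was 18.3 ± 29.9 TPM and the Ecad- mean 34.6 ± 53.2 TPM. The lowest, median and highest cells had 0, 12.1 and 262 TPM in Ecad+, and 0, 19.8 and 428 TPM in Ecad-. Almost the whole range was shared, while 49 of 97 Ecad- cells lay above the third Ecad+ quartile (19.0 TPM) and 29 below the first. The log2 ratio was 0.88, with 0.25, 0.62 and 1.68 in the sets and 0.47 without low-share cells, where the sets gave 0.23, 0.11 and 0.87. Without set 3 the ratio stood 0.17 above the median of all genes, against 0.58 over all cells. Values above 0 were found for Lonp1 in 98 of 100 Ecad+ cells (Clopper-Pearson 95% interval 93.0% to 99.8%) against 88 of 97 Ecad- cells (90.7%, 83.1% to 95.7%). Such intervals reflect counting error alone.

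Clpp, the proteolytic subunit on chromosome 17 (chr17:56990305-56996188), was slightly higher in Ecad- cells. It had 144 ± 99.9 TPM there and 109 ± 55.1 TPM in Ecad+ cells. The lowest, median and highest cells had 10.9, 105 and 281 TPM in Ecad+, and 0, 137 and 513 TPM in Ecad-. The ranges overlapped, with 6 Ecad- cells above the highest Ecad+ cell. The log2 ratio of 0.40 was 0.10 above the median of all genes, with 0.26, 0.73 and 0.13 in the sets. Without low-share cells it was 0.20, with 0.14, 0.41 and -0.07 in the sets. Clpx, its unfoldase partner (chr9:65294260-65330658), had an Ecad+ mean of 17.2 ± 18.4 TPM and an Ecad- mean of 24.9 ± 35.1 TPM. Its lowest, median and highest cells had 0, 12.4 and 112 TPM and 0, 15.7 and 279.8 TPM. Clpx had no stable direction. Its ratio of 0.51 was -0.17 in set 1, 0.55 in set 2 and 1.01 in set 3, and -0.08 without low-share cells. The mean of Clpx was 0.158 times that of Clpp in Ecad+ and 0.173 times in Ecad-, a log2 difference of 0.13 that was -0.29 without low-share cells.

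Trap1, the matrix Hsp90 (chr16:4039971-4077827), differed in how many cells showed it rather than in its mean. The Ecad+ mean of 24.0 ± 17.4 TPM and the Ecad- mean of 22.9 ± 31.0 TPM gave a log2 ratio of -0.06. The lowest, median and highest cells had 0, 20.2 and 82.5 TPM in Ecad+, and 0, 13.8 and 166 TPM in Ecad-. It was listed above 0 in 96 of 100 Ecad+ cells (95% interval 90.1% to 98.9%) but only 66 of 97 Ecad- cells (68.0%, 57.8% to 77.1%), while 6 Ecad- cells lay above the highest Ecad+ cell. Clpx was also above 0 in fewer Ecad- cells (78 of 97, or 80.4%) than Ecad+ cells (92 of 100). Such a drop was not particular to Trap1. Spg7 (96 of 100 and 65 of 97 cells) and Atad3a (92 and 67) showed it with means that hardly differed. Yme1l1 (99 and 95) did not. The drop over all genes of like level was not worked out. These shares include the low-share cells. On means of log2 values, which weigh cells at 0 more, the difference was -1.19. Without low-share cells the ratio of means was 0.31. Ecad- cells also had fewer genes above 0 in all (above), a number that moves with such shares, and its part was not tested.

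**Figure D3:**
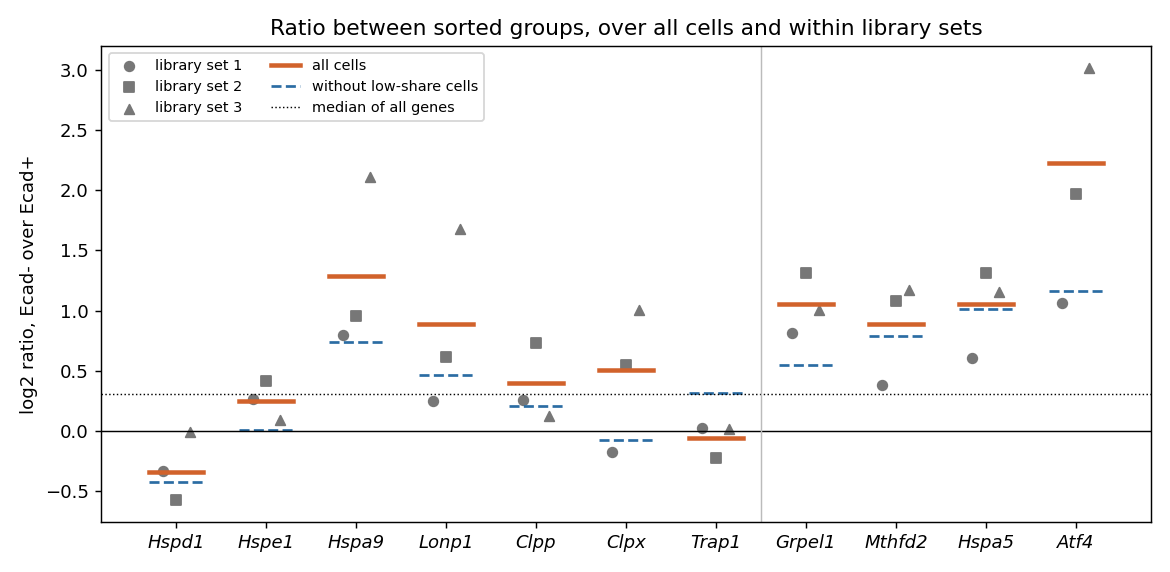
Log2 ratio of Ecad- to Ecad+ mean TPM for the 7 members (left of the line) and 4 genes for comparison; orange bars are all cells, blue dashed bars leave out low-share cells, and grey symbols are the 3 library sets. Hspa9 (1.29) is the only member past 1, Hspd1 is at or below 0 in each set, and Clpx lies on both sides of 0.

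Other genes of mitochondrial protein quality control did not move as a group either. Of 24 such genes, 22 passed the floor, with a median ratio of 0.12, below the 0.31 of all genes. Of these, 6 lay above and 16 below that median. Without low-share cells 11 of the 22 lay above the median of all genes. By at least 2-fold, 3 were higher and 1 lower, where 14.2% and 4.14% of all genes were, so these 2-fold counts are near the background. In each set 8 were higher and 2 lower, where 44.9% and 14.8% of all genes were. The 3 higher genes were Hscb, a J protein that hands iron-sulfur clusters on (24.2 and 63.1 TPM, ratio 1.35), and the nucleotide exchange factors Grpel2 (11.8 and 28.4 TPM, 1.20) and Grpel1 (41.0 and 86.1 TPM, 1.05). Without low-share cells they stood at 0.60, 0.50 and 0.55. The lower gene was Oma1, a stress-activated protease of the inner membrane, with 18.4 and 7.94 TPM and a ratio of -1.12 (-0.64, -1.23 and -1.65 in the sets, -0.96 without low-share cells). Oma1 was above 0 in 91 Ecad+ and 38 Ecad- cells.

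Taken from the lists after values were seen, 8 genes work directly with Hspa9: Grpel1, Grpel2, Dnaja3, Hscb, Dnajc19, Dnajc15, Pam16 and Timm44. Of these, 7 lay above the median of all genes, and 6 were higher in each set, where 44.9% of all genes were. Without low-share cells 7 were still above that median, with Timm44, which anchors Hspa9 at the import channel, now below (-0.25) and Dnajc19, which stood at -0.14 over all cells, now above (0.09). Since they were picked for what they bind after their values were known, these counts are a description only.

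Import genes stood a little higher. Of 21 named, 20 were found in the table and passed the floor, with a median ratio of 0.49, and 15 lay above the median of all genes. That median was 0.12 without low-share cells, with 10 of 20 above the 0.14 of all genes. Timm10, a small chaperone of the intermembrane space, went from 58.6 to 162 TPM (ratio 1.45, and 0.96 without low-share cells). Tomm6 and Tomm7, small subunits of the outer membrane pore, stood at 0.89 and 0.82 and Dnajc15 at 0.82.

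Among 10 genes of mitochondrial stress signalling, 6 passed the floor. Gdf15, a secreted stress cytokine, stood at 2.06 (6.09 and 28.5 TPM), Sirt3, a matrix deacetylase, at 1.12, Ubl5 at 0.93 and Eif2ak1, the HRI kinase, at 0.46. The other genes of this list above the floor, the transcription factors Hsf1 (-0.17) and Nrf1 (0.01), lay below the median of all genes. Without low-share cells Gdf15 stood at 1.86, Sirt3 at 0.75 and Ubl5 at 0.40, while Eif2ak1, at 0.05, lay below the 0.14 of all genes. Atf5, the factor linked to the mitochondrial response in mammals, was far below the floor, at 0.328 and 0.667 TPM, and was above 0 in 53 cells of each group. Dele1, listed under an older symbol, was below the floor as well (0.851 and 1.52 TPM).

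The genes of ATF4 moved further than the mitochondrial chaperones and proteases. Of 30 ATF4 genes, 27 passed the floor, with a median ratio of 1.28, 17 were higher by at least 2-fold and none lower, where 14.2% and 4.14% of all genes were. In each set 23 were higher, where 44.9% of all genes were. Atf4 itself went from 76.9 to 363 TPM (2.22, and 1.16 without low-share cells), and Ddit3, which encodes CHOP, from 31.1 to 562 TPM (4.13, and 3.07). Ppp1r15a stood at 2.93, Trib3 at 2.61 and Nupr1 at 2.60. These lists were drawn up with the raised ATF4 genes already known. Of 7 ATF4 targets that act inside mitochondria, 5 passed the floor, none was past 2-fold, and their median was 0.48. Mthfd2, an enzyme of the folate cycle, stood at 0.89 and Shmt2, its partner in serine use, at 0.59, with -0.13 in set 2. Pck2 stood at 0.48 and Pycr1 at 0.27, with -0.71 in set 1.

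Chaperones of other compartments had list medians close to that of all genes. For 13 chaperone genes of the endoplasmic reticulum above the floor the median was 0.34, with Dnajb9 at 2.47, Hspa5 (BiP) at 1.05, Creld2 at 0.86 and Pdia3 at -0.55. For 22 cytosolic chaperone genes it was 0.35, with Hspa1a at 3.55, Hspa1b at 2.85, St13 at 0.92 and Hsp90aa1 at 0.88. Without low-share cells Hspa1a stood at -0.14 and Hspa1b at 0.15. Hspa9 and Hspa5, the Hsp70 genes of the matrix and of the endoplasmic reticulum, thus stood at 1.29 and 1.05. Without low-share cells they stood at 0.74 and 1.01. The 13 mitochondrially encoded messenger RNAs had a median of -1.10, and each was lower in each set.

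**Figure D4:**
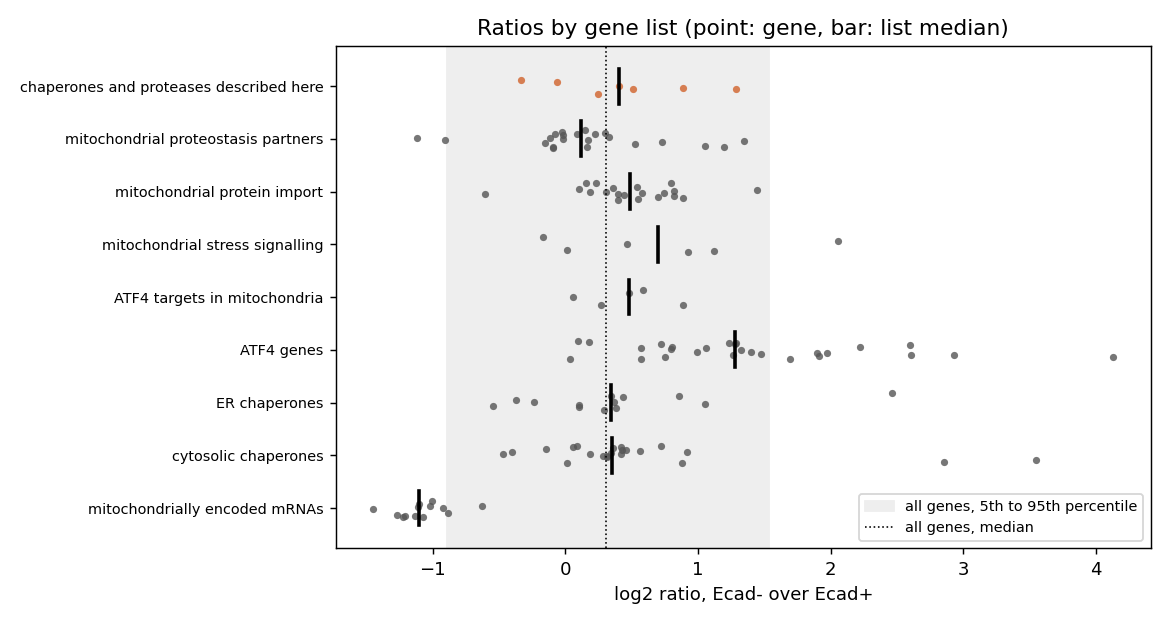
Log2 ratio of Ecad- to Ecad+ for each gene above the floor, by list; black bars are list medians, grey marks the 5th to 95th percentile of all genes and the dotted line their median (0.31). The 7 chaperones and proteases spread around the median of all genes, while most ATF4 genes lie to its right and the mitochondrially encoded messenger RNAs to its left.

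Cells within a sorted group also differed from each other, and across them each member had a different gene most like it. Spearman correlations across libraries were taken within each of 6 strata, 1 group in 1 library set, and averaged. The points share a library and its unknown depth, 5 cells are in 2 sets, and the values are descriptions. Hspd1 and Hspe1 were the closest members, with a mean correlation of 0.71 (0.57 to 0.79 over the strata), and 0.80 without low-share cells. The gene most like Hspd1 among all genes above the floor was Ncl, the nucleolar protein nucleolin (0.74), and the one most like Hspe1 was Cacybp (0.75).

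Hspa9 followed the ATF4 genes. Its correlation with the mean log2 level of the ATF4 genes was 0.68 (0.50 to 0.81 over the strata), where the median over all genes was 0.19 and 99.8% of genes stood lower. It was 0.67 in Ecad+ and 0.68 in Ecad- strata, so the same order held in cells of either group. The gene most like Hspa9 was Nars, the cytosolic asparaginyl-tRNA synthetase and a member of the ATF4 list (0.67). Both values move with the mitochondrial share, with which Hspa9 had a correlation of -0.50. With each library rescaled without mitochondrially encoded and ribosomal protein genes, the correlation of Hspa9 with the ATF4 genes was 0.57 (median of all genes 0.08, with 99.7% lower). Without low-share cells, and without rescaling, it was 0.68.

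The correlation with the ATF4 genes was 0.55 for Clpp, 0.44 for Lonp1, 0.42 for Hspd1, 0.37 for Clpx and 0.26 for Hspe1. In the same order, 99.4%, 97.0%, 96.3%, 91.1% and 68.4% of all genes stood lower. After rescaling the correlations were 0.42, 0.35, 0.30, 0.25 and 0.10, with 99.1%, 98.1%, 96.2%, 92.1% and 57.9% lower. A high standing with the ATF4 genes was thus not particular to Hspa9. With the mean of the cytosolic chaperones, which was not rescaled, Hspd1 had 0.54, Clpp 0.51 and Hspe1 0.39. Hspa9 had 0.36 with that mean, with 0.62 in Ecad+ and 0.10 in Ecad- strata. With the ATF4 genes, Trap1 had 0.19, close to the median of all genes, with 0.41 in Ecad+ and -0.04 in Ecad- strata. The difference between the groups was not tested. Lonp1 and Hspe1 had a correlation of -0.11 with each other, from -0.42 to 0.32 over the strata, and Lonp1 and Hspd1 had 0.10, with -0.05 in Ecad+ and 0.24 in Ecad- strata.

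**Figure D5:**
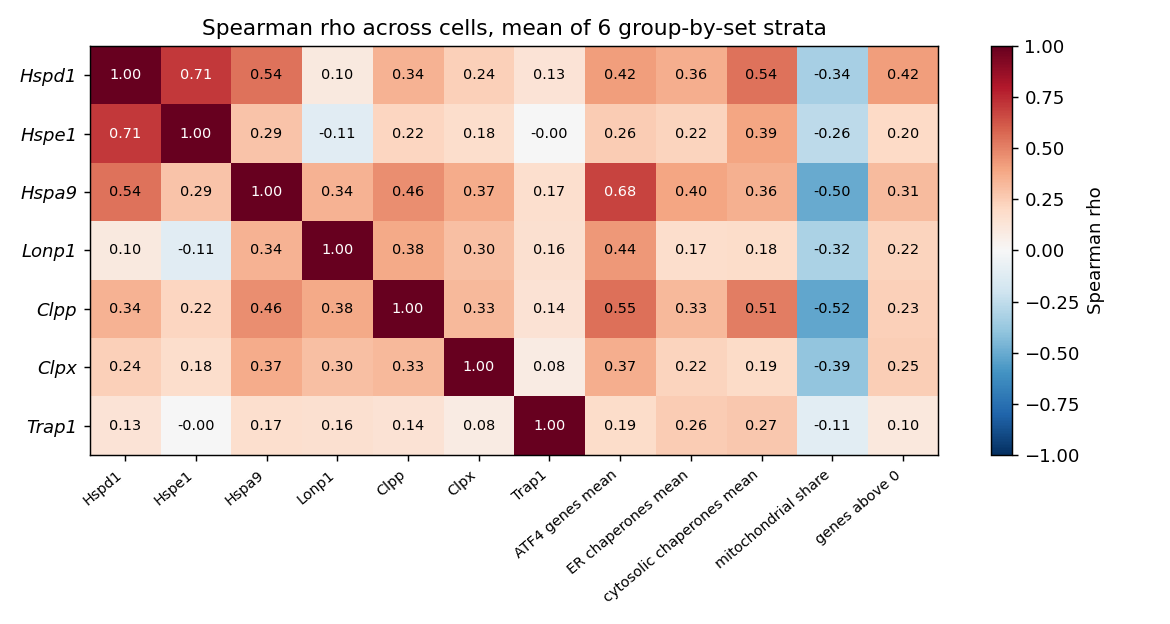
Spearman correlation across cells between each member (rows) and the members, the mean level of 3 gene lists, the mitochondrial share of TPM and the number of genes above 0 (columns), averaged over 6 strata of group and library set. The chaperonin pair stands out at 0.71 and Hspa9 with the ATF4 genes at 0.68, while Trap1 stands at 0.19 with the ATF4 genes.

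Closest to the mean level of the 7 members were Shmt2 (0.66), Rpl4 (0.61), the tRNA synthetase genes Eprs (0.61) and Aars (0.60), and the gene model Gm16286 (0.59), where the median of all genes was 0.20. The single genes most like the other members were Grina for Lonp1 (0.51), Ndufv2 for Clpp (0.55), Calu for Clpx (0.47) and Rpl3 for Trap1 (0.45). Between groups such genes did not all follow the member they resembled. Calu had a log2 ratio of -0.32 beside the 0.51 of Clpx, and Ncl stood at -0.0054 beside the -0.34 of Hspd1. Grina, at 1.38 beside the 0.88 of Lonp1, and Nars, at 1.28 beside the 1.29 of Hspa9, did go the same way.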

How the data were processed

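The authors deposited 1 table of log2 values for 28987 genes and 202 libraries. Per the submitters' processing notes, FastQC 0.11.5 and kallisto were used with build mm10; neither the transcript index nor the gene summing or cell filtering is described in the labels. The deposited log2 values were read as log2(TPM + 1), because library sums after back-transformation ranged from 933711 to 987134. The authors' fold changes and p-values, which treat cells as replicates, were not used. Libraries were made with SMARTer and Nextera XT, per the labels, a chemistry with neither strand marking nor molecular identifiers.

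A symbol on several rows was read from its most abundant row. Group levels are arithmetic means of TPM, and ratios are log2 of the Ecad- mean plus 1 over the Ecad+ mean plus 1, which understates changes of low genes. Libraries correlating above 0.97 were averaged. Since each group is 1 sample, there was no test; past 2-fold means a log2 ratio of at least 1 or of -1 or below. Shares have exact Clopper-Pearson intervals. Named genes are all members, the 4 genes (or fewer) farthest from 0 in each list, Atf4, Ddit3, Atf5 and Hspa5, and the genes most alike across cells. Cdh1, Cd68, Ttr, Dele1, Hsf1, Nrf1, Spg7, Atad3a, Yme1l1, the partners of Hspa9 and the Hspa9 to Hspd1 comparison were named after their values were seen. The members and lists were chosen with earlier results of these data known. Coordinates are from GENCODE M21 and promoters from RefSeq on the same build. Alternatives were other means, scalings, pseudocounts, floors, library sets left out and cell filters. The ratio code was checked on the deposited libraries with shuffled group labels and planted fold changes. That check used no pseudocount and did not average pairs. Python 3.11.15, numpy 2.4.6, pandas 2.3.3 and scipy 1.17.1 were used.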

Additional observations from a re-analysis of the deposited data

How the results depend on the processing

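Of the summary results and their alternatives, 216 stayed within the spread used for comparison and 49 moved. That spread was the SD of a result over the 3 library sets. For the number of members past 2-fold, each changed count was labelled moved. The SD was wide for some members, so staying within it does not mean little change. Without low-share cells Hspa9 at 0.74 (SD 0.71) and Clpx at -0.08 (SD 0.59) still counted as within it. No paired analysis was possible because the numbers in the sample titles only count libraries within a group and each group is 1 sample, with no test. The number of members past 2-fold is the least stable result: 0 after centring on the median of all genes, after rescaling without mitochondrial and ribosomal protein genes, without set 3 and without low-share cells, and 2 (Hspa9 and Lonp1) without set 1 or without the 10% of cells with the fewest genes. On means of log2 values it was again 1, but the gene was Trap1, lower at -1.19, and Hspa9 at 0.96 was not past 2-fold. On that scale the median of all genes was -0.28, and relative to it the members' median was 0.31 and Hspe1 also 0.31, above their main values of 0.10 and -0.06. Before that shift Hspe1 was 0.030, Clpp and the members' median 0.029, Clpx -0.10, the quality control partners -0.56, import -0.053, stress signalling 0.29, endoplasmic reticulum chaperones -0.26, cytosolic chaperones -0.075 and mitochondrially encoded messenger RNAs -4.05. Centred, Hspd1 was -0.64, Hspe1 -0.057, Trap1 -0.37, the members' median 0.10, partners -0.19, import 0.18, endoplasmic reticulum chaperones 0.038 and cytosolic chaperones 0.046. Rescaled, these 8 were -0.66, -0.092, -0.23, 0.12, -0.16, 0.14, 0.030 and 0.037. Without low-share cells, Hspe1 was 0.0056, Trap1 0.31, import 0.12, stress signalling 0.23, cytosolic chaperones 0.17 and mitochondrially encoded messenger RNAs -0.36. With a 10% trimmed mean, Trap1 was -0.22, partners -0.0091 and cytosolic chaperones 0.25. The partners' median was 0.081 with a pseudocount of 10 (stress signalling 0.35), 0.080 without set 2, 0.088 without set 3, 0.092 with a floor of 50 TPM, 0.15 with all libraries counted separately and 0.19 without the cells with the fewest genes. The causes were not tested. Rescaling for likeness was chosen after seeing the data. Depth is unknown, and 1 sample per group leaves differences between cultures unmeasured.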
